A study of Homo sapiens with 18 samples.

Results

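The 10 genes described here encode enzymes that make, lengthen, desaturate and activate fatty acids: ACLY, ACSS2, FASN, ELOVL6, SCD, FADS1, FADS2, ACSL3, ACSL4 and LPIN1. They were taken as a list of symbols and matched to the Ensembl identifiers of the count tables. All 10 were found among 63677 identifiers, and all 10 had enough reads to be among the 15179 genes tested. Polyadenylated RNA was sequenced from HAP1 cells, which carry close to 1 copy of each human chromosome and descend from KBM-7, a line of chronic myeloid leukaemia. The 6 groups combined 3 lines with 2 media, and each held 3 libraries that the labels describe as independent biological replicates. The lines were parental HAP1 (WT), HAP1 with the genotype ATG7KO and HAP1 with the genotype RB1CC1KO, which carry no other stated allele or agent. Each line was taken either from full medium, which is IMDM with 10% heat-inactivated calf serum, or after 6 h in EBSS, a salt solution with glucose that lacks amino acids and serum. ATG7 activates the ubiquitin-like proteins of autophagy, and RB1CC1 (FIP200) is a scaffold of the kinase complex that starts it. Each genotype was represented by 1 line, so a difference between genotypes and any other difference between these lines cannot be told apart.

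Fatty acids are built in the cytosol from acetyl-CoA, which ACLY releases from citrate exported by mitochondria and ACSS2 makes from acetate. FASN assembles palmitate from acetyl-CoA and malonyl-CoA, ELOVL6 lengthens it, SCD places the first double bond, and FADS1 and FADS2 desaturate polyunsaturated chains. ACSL3 and ACSL4 join free fatty acids to coenzyme A so that they can enter lipids, and LPIN1 removes the phosphate from phosphatidate to give the diacylglycerol from which storage and membrane lipids are made. Many of these genes are known targets of the SREBP transcription factors, which are released from the endoplasmic reticulum when sterols are low and which respond to growth and nutrient signals.

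Libraries held 4892072 to 26005942 reads in genes, with a median of 16275294, and the shallowest was ATG7KO EBSS replicate 3. In the ATG7KO line ATG7 stood at 4.02 CPM (read counts scaled for the depth of each library) in full medium against 15.6 in WT, and at 10.4 against 16.1 in EBSS. RB1CC1 was not lower in the line labelled RB1CC1KO, with 157 CPM in full medium against 105 in WT and 264 in EBSS against 222, so read counts of the gene do not check this label and the line is called RB1CC1KO-labelled below. Mitochondrial reads took 3.24% to 4.26% of reads in genes in fed libraries and 1.41% to 2.36% in starved ones. Of 16 blood cell markers only 4 had enough reads to be tested, and GATA1, HBG1, HBE1 and CD3E were among those with no reads. The summed blood markers lay at 57.8 to 68.8 CPM in WT in full medium, 20.1 to 20.8 in ATG7KO and 71.1 to 78.5 in RB1CC1KO-labelled cells, and at 29.1 to 34.0, 7.85 to 10.1 and 29.2 to 31.8 in EBSS. Of these sums, TAL1 held on average 37.3, 9.92 and 51.5 CPM fed and 17.4, 1.4 and 14.7 starved. Of 10 mesenchymal markers 5 were tested, and their list summed to 57.1 to 81.9 CPM in WT and ATG7KO libraries but to at most 28.5 in RB1CC1KO-labelled ones. Of 8 epithelial markers 6 were tested, and that list summed to 107 to 127 CPM in WT, 63.4 to 71.5 in ATG7KO and 75.6 to 99.5 in RB1CC1KO-labelled libraries. Of 9 adipocyte and hepatocyte markers, cells in which these enzymes are abundant, 1 was tested, ALB. LEP, PLIN1, FABP4 and TTR had no reads, and the list never exceeded 3.08 CPM. The part of these differences in markers and mitochondrial reads in the results was not tested. In bulk RNA, fewer cells of a type and less RNA per cell cannot be told apart.

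The promoters of 9 of the 10 genes, all but FASN, were found in a RefSeq table of human promoters (GRCh38.p14). Each window ran from 250 bases before a transcription start to 50 bases after it. Those of SCD, ELOVL6 and ACSL3 are shown because each of these genes had a single listed start and because their RNA went 3 different ways: SCD and ELOVL6 fell in EBSS, to different extents, and ACSL3 was higher in the RB1CC1KO-labelled line in both media. Capitals mark CCAAT (the NF-Y box) and GGGCGG (the GC box) or their reverse complements. The window of SCD is chr10:100346983-100347282 on the plus strand, that of ELOVL6 chr4:110198566-110198865 on the minus strand and that of ACSL3 chr2:222860786-222861085 on the plus strand.
SCD: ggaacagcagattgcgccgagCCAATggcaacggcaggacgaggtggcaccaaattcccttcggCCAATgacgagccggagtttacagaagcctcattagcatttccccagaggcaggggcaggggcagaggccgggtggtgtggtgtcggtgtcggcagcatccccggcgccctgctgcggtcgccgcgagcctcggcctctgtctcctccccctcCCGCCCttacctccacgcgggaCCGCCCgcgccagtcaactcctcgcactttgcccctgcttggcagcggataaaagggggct
ELOVL6: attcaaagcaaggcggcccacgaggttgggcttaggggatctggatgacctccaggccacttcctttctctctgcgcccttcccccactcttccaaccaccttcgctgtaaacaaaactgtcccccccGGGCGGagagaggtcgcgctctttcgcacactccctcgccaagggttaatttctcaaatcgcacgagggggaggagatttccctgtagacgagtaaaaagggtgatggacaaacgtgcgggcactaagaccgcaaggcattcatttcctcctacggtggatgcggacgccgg
ACSL3: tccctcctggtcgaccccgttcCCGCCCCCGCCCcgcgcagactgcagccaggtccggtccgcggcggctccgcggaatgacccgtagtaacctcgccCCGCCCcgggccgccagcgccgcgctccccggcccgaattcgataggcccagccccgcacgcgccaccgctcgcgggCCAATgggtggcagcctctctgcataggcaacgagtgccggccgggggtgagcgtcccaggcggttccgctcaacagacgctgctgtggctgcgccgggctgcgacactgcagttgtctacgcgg
SCD carried 2 CCAAT boxes, whose first bases lay 229 and 186 bases before the start, and 2 GC boxes on the other strand 33 and 11 bases before it. ELOVL6 had 1 GC box, 122 bases before its start, and no CCAAT. ACSL3 had 1 CCAAT box 75 bases before the start and 3 GC boxes at 228, 222 and 152 bases before it. Over all 9 genes a CCAAT box was found for 5 (ACLY, ACSL3, ACSS2, FADS2 and SCD), against 34.6% of 35116 promoters in the table, and a GC box for 9, against 45%. A sterol response element (TCACNCCAC), an E-box (CACGTG), a C/EBP-ATF element (TGATGNAA) and the CLEAR-like form of the E-box (TCACGTGA) were each found in 0 of the 9, against 1.13%, 7.26%, 3.62% and 0.98% of all promoters. All motifs were searched on both strands, and genes with several starts had more windows in which a motif could occur. These are letter matches in short windows and not measured binding sites.

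Levels in fed WT cells differed widely between the 10 genes once reads were divided by exon length. ACLY stood at 101 CPM per kb of exon, FASN at 99.4 and SCD at 73.7, which placed these 3 at the 98.3rd, 98.2nd and 97.2nd percentile of 14806 tested genes with a known length. FADS2 followed at 38.5 CPM per kb, FADS1 at 19.3, ELOVL6 at 13.3 and ACSL3 at 11.8. ACSL4 at 7.76, ACSS2 at 6.61 and LPIN1 at 4.60 CPM per kb were the lowest, and LPIN1 lay at the 50.1st percentile. Of the enzymes that supply acetyl-CoA, ACLY thus had far more RNA per length than ACSS2. Together the 10 genes took 0.288% to 0.305% of the reads in genes in fed WT libraries.

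**Figure D1:**
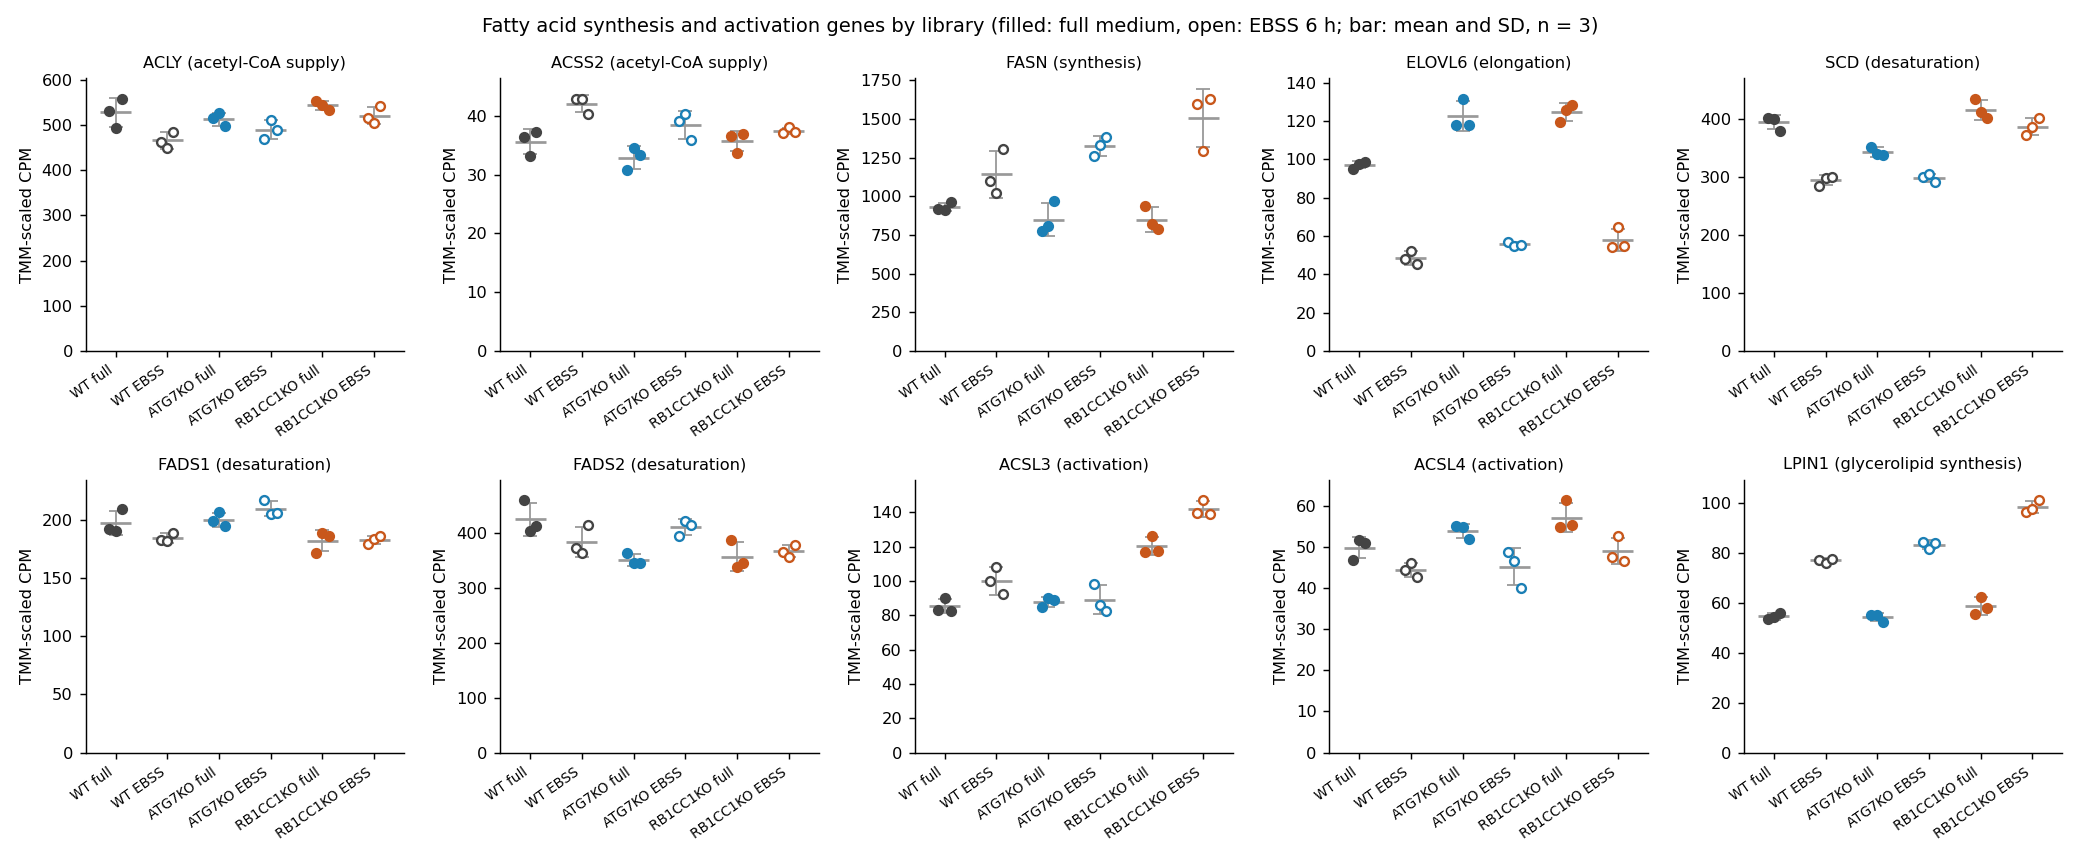
Each panel plots 1 of the 10 genes, with TMM-scaled CPM on the vertical axis from 0 and the 6 groups on the horizontal axis; points are libraries (filled for full medium, open for EBSS) and bars are the mean and SD of 3 libraries. ELOVL6 is lower in every EBSS library than in every fed one, LPIN1 is higher in every EBSS library than in every fed one, and ACSL3 is highest in the RB1CC1KO-labelled libraries.

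The first comparison asked how 6 h without amino acids and serum changed the genes in each line. ELOVL6 fell in all lines, with changes of -50.1% in WT, -54.5% in ATG7KO and -53.4% in RB1CC1KO-labelled cells, while LPIN1 and FASN rose in all 3. LPIN1 rose 1.41-fold, 1.54-fold and 1.68-fold, and FASN 1.23-fold, 1.56-fold and 1.78-fold. SCD fell in WT (-25.4%) and ATG7KO (-12.8%). The other genes moved by less than 20% wherever they were called. A gene counts as called where edgeR's quasi-likelihood test gave an adjusted p under 0.05, with Benjamini-Hochberg adjustment across the 15179 genes.

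In WT 8 of the 10 genes were called, 4 higher (FASN, ACSS2, ACSL3, LPIN1) and 4 lower (SCD, ACLY, ELOVL6, FADS2), where 64.5% of all genes tested were called. In ATG7KO 7 were called, 4 higher (FASN, ACSS2, FADS2, LPIN1) and 3 lower (SCD, ACSL4, ELOVL6), against 62.9% of all genes. In RB1CC1KO-labelled cells 5 were called, 3 higher (FASN, ACSL3, LPIN1) and 2 lower (ACSL4, ELOVL6), against 65.1%. Their median log2 fold changes were -0.12, 0.05 and 0.02, beside -0.02, -0.01 and -0.03 over all genes. With TMM scaling the share of the 10 called was above that of all genes in WT, near it in ATG7KO and below it in RB1CC1KO-labelled cells. That order depended on the scaling. With library totals 7 of the 10 were called in WT, 6 in ATG7KO and 8 in RB1CC1KO-labelled cells. The counts therefore do not rank the lines. The members went in both directions in each line. ELOVL6, FASN and LPIN1 were called in the same direction in all 3 lines, which is 3 of 10, where 48.6% of all genes tested were. FADS2 was called in opposite directions in WT and ATG7KO, and FADS1 was called in no line.

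The scaling of the libraries bears on the small changes. With scaling by the upper quartile or by library totals the median of all genes after EBSS moved to between -0.17 and -0.22, and 33.8% to 37.4% of called genes were higher in place of 48.9% to 51.3%. ELOVL6 in all 3 lines, LPIN1 in all 3, FASN in ATG7KO and RB1CC1KO-labelled cells, and SCD in WT and ATG7KO were called in the same direction under all 4 scalings. Changes of ACSS2, ACSL3 and FADS2 that rose with TMM, and that of FASN in WT, were not called under those 2 scalings, as given beside each gene.

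**Figure D2:**
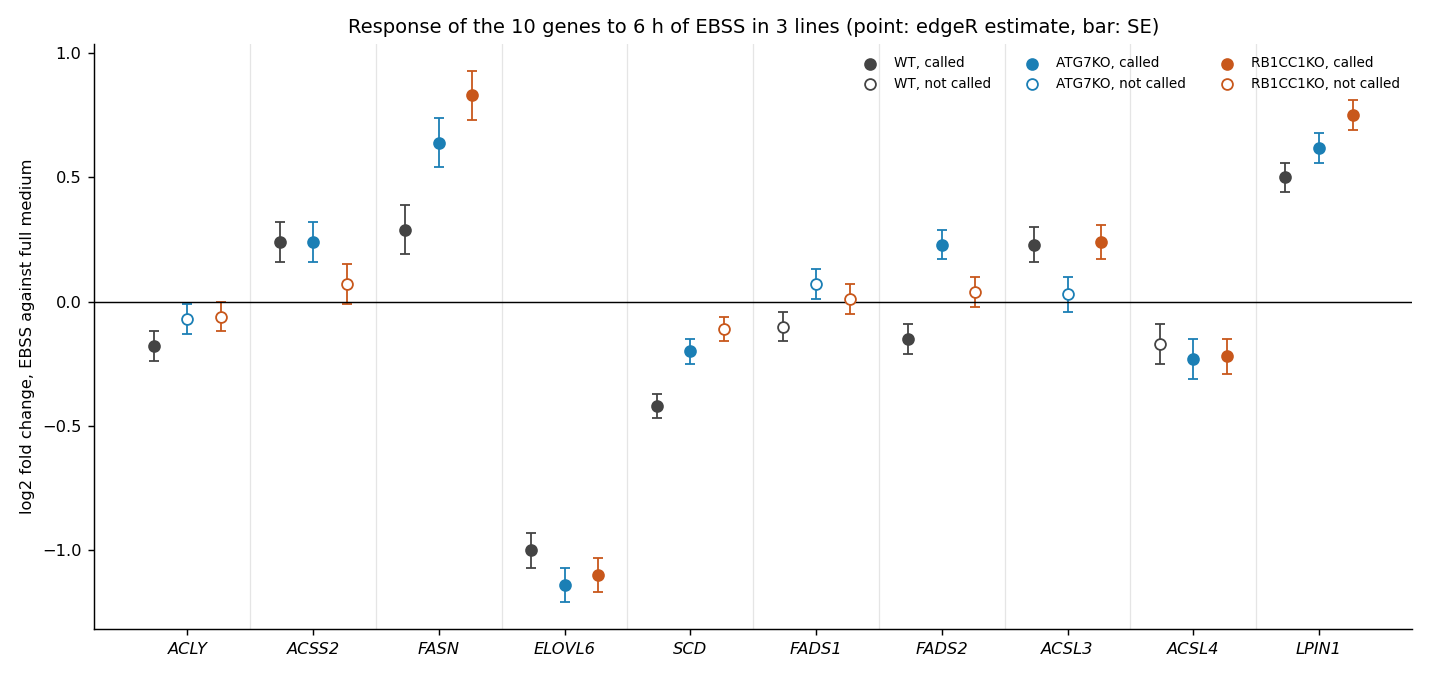
The log2 fold change of EBSS against full medium (vertical axis) is plotted for each of the 10 genes (horizontal axis) in WT, ATG7KO and RB1CC1KO-labelled cells, with bars for the SE; filled points passed an adjusted p of 0.05. ELOVL6 lies lowest in all 3 lines, LPIN1 at 0.50 to 0.75 and FASN at 0.29 to 0.83, and SCD lies at -0.42 in WT.

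Of the enzymes that supply acetyl-CoA, ACLY (ENSG00000131473, chromosome 17) stood at 494 to 559 CPM in fed WT libraries and 450 to 485 in starved ones, without overlap. It fell by 0.18 (log2, SE 0.06, adjusted p 0.00607). In ATG7KO it ranged from 498 to 526 CPM fed and 470 to 512 starved, and in RB1CC1KO-labelled cells from 533 to 553 and 504 to 542, so these ranges overlapped. The log2 changes there were -0.07 (adjusted p 0.313) and -0.06 (adjusted p 0.337). Scaled by library totals they were -0.24 and -0.25 (adjusted p 0.000336 and 0.000192), and without ATG7KO EBSS replicate 2 the change in ATG7KO was -0.16 (adjusted p 0.0361). ACSS2 (ENSG00000131069, chromosome 20), which makes acetyl-CoA from acetate, rose in WT by 0.24 (SE 0.08, adjusted p 0.00599) from 33.1 to 37.3 CPM fed to 40.4 to 42.9 starved. In ATG7KO it rose by 0.24 (SE 0.08, adjusted p 0.00922) from 30.7 to 34.5 CPM to 35.9 to 40.3, and the groups did not overlap in either line. In RB1CC1KO-labelled cells the starved libraries at 37.1 to 38.0 CPM lay just above the fed ones at 33.7 to 36.8, with a log2 change of 0.07 (adjusted p 0.443). With library totals the rise of ACSS2 was 0.09 in WT (adjusted p 0.319) and 0.06 in ATG7KO (adjusted p 0.485). In WT it missed the threshold without WT full replicate 2 (0.19, adjusted p 0.0541) or WT EBSS replicate 1 (0.20, adjusted p 0.0504), and in ATG7KO without ATG7KO full replicate 1 (0.19, adjusted p 0.0631), EBSS replicate 1 (0.18, adjusted p 0.0952) or EBSS replicate 2 (0.15, adjusted p 0.164).

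FASN (ENSG00000169710, chromosome 17), the multi-domain synthase that builds palmitate, rose in all 3 lines. In WT it stood at 921, 909 and 961 CPM in full medium and at 1096, 1020 and 1309 in EBSS. In ATG7KO the values were 775, 805 and 969 fed and 1259, 1334 and 1386 starved, and in RB1CC1KO-labelled cells 938, 822 and 786 fed and 1597, 1291 and 1632 starved. No starved library of a line overlapped a fed one, and 2 of the 3 starved WT libraries lay below every starved library of the other lines. The log2 changes were 0.29 (SE 0.10, adjusted p 0.016) in WT, 0.64 (SE 0.10, adjusted p 1.76e-05) in ATG7KO and 0.83 (SE 0.10, adjusted p 5.95e-07) in RB1CC1KO-labelled cells. The WT change was not called with upper-quartile scaling or library totals (0.14 under each, adjusted p 0.243 and 0.284). It also missed the threshold without WT full replicate 1 (0.29, adjusted p 0.0544), WT full replicate 2 (0.28, adjusted p 0.0519) or WT EBSS replicate 3 (0.19, adjusted p 0.0948). The rises in the other 2 lines kept their call under every alternative run.

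ELOVL6 (ENSG00000170522, chromosome 4), the elongase that takes palmitate to stearate, had the largest change of the 10 in each line. Fed WT libraries held 95.2, 97.8 and 98.4 CPM and starved ones 48.0, 52.2 and 45.4. Fed ATG7KO libraries held 118, 132 and 118 CPM and starved ones 56.9, 55.0 and 55.2, and fed RB1CC1KO-labelled libraries 119, 126 and 129 CPM and starved ones 54.2, 64.5 and 54.7. Every starved library lay below every fed one, with a gap between 64.5 and 95.2 CPM. It fell by 1.00 (log2, SE 0.07, adjusted p 1.66e-14) in WT, by 1.14 (SE 0.07, adjusted p 8.55e-16) in ATG7KO and by 1.10 (SE 0.07, adjusted p 4.47e-16) in RB1CC1KO-labelled cells. These calls held under every scaling, filter, tool and left-out library that was run. The differences of the response from WT were -0.13 (SE 0.10, adjusted p 0.568) for ATG7KO and -0.10 (SE 0.10, adjusted p 0.603) for RB1CC1KO-labelled cells. The promoter printed above for ELOVL6 holds none of the 6 motifs other than its GC box.

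SCD (ENSG00000099194, chromosome 10), which desaturates stearate and palmitate, fell in 2 lines. WT libraries held 403, 401 and 381 CPM fed and 285, 299 and 300 starved, and ATG7KO libraries 353, 340 and 338 CPM fed and 301, 305 and 291 starved. RB1CC1KO-labelled libraries held 436, 412 and 402 CPM fed and 373, 386 and 403 starved. The fed and starved ranges were apart in WT and ATG7KO and overlapped narrowly in RB1CC1KO-labelled cells, whose starved libraries all lay above every fed ATG7KO library. The log2 change was -0.42 (SE 0.05, adjusted p 2.47e-08) in WT, -0.20 (SE 0.05, adjusted p 0.00209) in ATG7KO and -0.11 (SE 0.05, adjusted p 0.0836) in RB1CC1KO-labelled cells. The last value was called with upper-quartile scaling (-0.25, adjusted p 0.000108), with library totals (-0.29, adjusted p 8.75e-06) and without RB1CC1KO EBSS replicate 3 (-0.14, adjusted p 0.049).

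FADS1 (ENSG00000149485) and FADS2 (ENSG00000134824), the desaturases of polyunsaturated chains, lie head to head on chromosome 11, and their annotated exons overlap on opposite strands. FADS2 also shares annotated exon sequence with FEN1 on the same strand, a DNA repair nuclease with 48598 reads over all libraries against 107932 for FADS2. The strand setting of the counting is not given in the sources used here, so reads from the overlaps could not be assigned with certainty and the values of both genes are uncertain to that extent. FADS1 ranged from 172 to 217 CPM over all 18 libraries. Its log2 changes in EBSS were -0.10 in WT (SE 0.06, adjusted p 0.13), 0.07 in ATG7KO (SE 0.06, adjusted p 0.319) and 0.01 in RB1CC1KO-labelled cells (SE 0.06, adjusted p 0.912). With library totals FADS1 fell by 0.26 in WT (adjusted p 0.000118) and by 0.18 in RB1CC1KO-labelled cells (adjusted p 0.00425). In WT its value was negative in every alternative, from -0.255 to -0.0767, and only the call depended on the scaling. In RB1CC1KO-labelled cells its direction depended on the scaling.

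FADS2 held 459, 403 and 411 CPM in fed WT libraries and 372, 362 and 413 in starved ones. ATG7KO libraries held 362, 344 and 344 CPM fed and 393, 422 and 415 starved, and RB1CC1KO-labelled libraries 387, 338 and 344 fed and 365, 357 and 378 starved. Fed WT libraries thus lay above all fed ATG7KO and RB1CC1KO-labelled ones, and the starved groups of WT and ATG7KO overlapped. FADS2 fell in WT by 0.15 (SE 0.06, adjusted p 0.0363) and rose in ATG7KO by 0.23 (SE 0.06, adjusted p 0.00219), and in RB1CC1KO-labelled cells the change was 0.04 (SE 0.06, adjusted p 0.594). The fall in WT missed the threshold without WT full replicate 1 (-0.09, adjusted p 0.236), WT EBSS replicate 1 (-0.16, adjusted p 0.0559) or WT EBSS replicate 2 (-0.11, adjusted p 0.179). It also missed it in a fit to the compared groups only (-0.15, adjusted p 0.0639). The rise in ATG7KO missed it with upper-quartile scaling (0.06, adjusted p 0.386), with library totals (0.05, adjusted p 0.481) and without ATG7KO EBSS replicate 2 (0.15, adjusted p 0.0806). In RB1CC1KO-labelled cells the value was -0.15 with library totals (adjusted p 0.0425).

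Of the activating enzymes, ACSL3 (ENSG00000123983, chromosome 2), which sits on the endoplasmic reticulum and lipid droplets, held 83.3, 90.0 and 82.6 CPM in fed WT libraries and 99.7, 108 and 92.2 in starved ones. ATG7KO libraries held 84.6, 89.8 and 89.0 CPM fed and 98.4, 86.0 and 82.5 starved, and RB1CC1KO-labelled libraries 117, 126 and 118 CPM fed and 139, 147 and 139 starved. All 6 RB1CC1KO-labelled libraries lay above all 12 others. ACSL3 rose in EBSS by 0.23 in WT (SE 0.07, adjusted p 0.00405) and by 0.24 in RB1CC1KO-labelled cells (SE 0.07, adjusted p 0.00201), and the value in ATG7KO was 0.03 (SE 0.07, adjusted p 0.725). With library totals the values were 0.07 in WT (adjusted p 0.341) and 0.05 in RB1CC1KO-labelled cells (adjusted p 0.457), and without WT EBSS replicate 2 the WT value was 0.17 (adjusted p 0.0501). ACSL4 (ENSG00000068366, chromosome X), which prefers polyunsaturated chains such as arachidonate, ranged from 46.9 to 61.3 CPM over the fed libraries and 40.1 to 52.7 over the starved ones. It fell by 0.23 in ATG7KO (SE 0.08, adjusted p 0.00933) and by 0.22 in RB1CC1KO-labelled cells (SE 0.07, adjusted p 0.00993), and the value in WT was -0.17 (SE 0.08, adjusted p 0.0519). The call in ATG7KO was lost without ATG7KO EBSS replicate 3, the shallowest library (-0.18, adjusted p 0.0622). That in RB1CC1KO-labelled cells was lost without full replicate 2 (-0.16, adjusted p 0.103) or EBSS replicate 1 (-0.19, adjusted p 0.0515). The WT value was called in 6 of 14 alternatives, among them without WT full replicate 1 (-0.21, adjusted p 0.0288) and with library totals (-0.33, adjusted p 0.000211).

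LPIN1 (ENSG00000134324, chromosome 2), the phosphatidate phosphatase, had replicates close together and rose in all 3 lines. WT libraries held 53.4, 54.3 and 55.8 CPM fed and 77.3, 76.1 and 77.6 starved. ATG7KO libraries held 55.0, 55.1 and 52.3 CPM fed and 84.5, 81.4 and 84.0 starved, and RB1CC1KO-labelled libraries 55.5, 62.4 and 57.8 fed and 96.4, 97.7 and 101 starved. The 9 fed libraries lay below the 9 starved ones, and the 3 starved groups did not overlap each other, with WT lowest and RB1CC1KO-labelled cells highest. LPIN1 rose by 0.50 (SE 0.06, adjusted p 1.57e-08) in WT, 0.62 (SE 0.06, adjusted p 1.8e-10) in ATG7KO and 0.75 (SE 0.06, adjusted p 5.54e-13) in RB1CC1KO-labelled cells, and kept these calls under every alternative run.

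**Figure D3:**
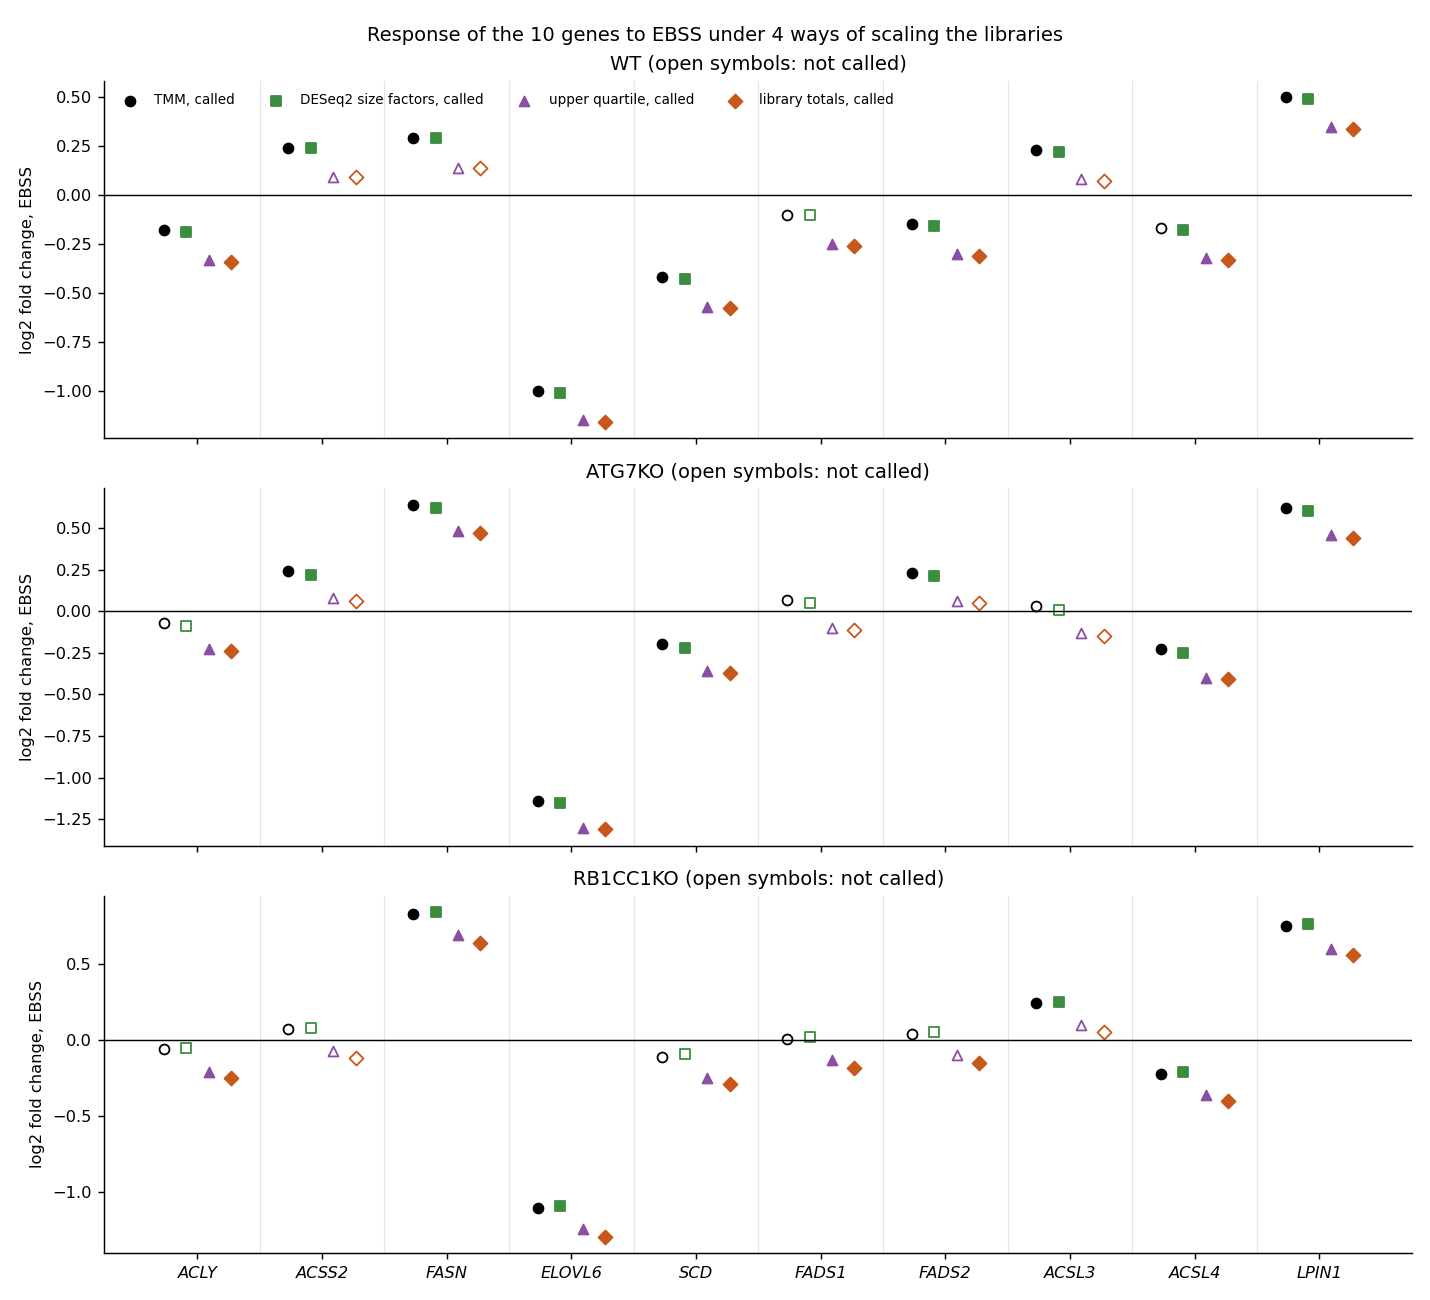
For each line (panels) the log2 fold change of EBSS against full medium (vertical axis) is plotted for each of the 10 genes (horizontal axis) under scaling by TMM, DESeq2 size factors, upper quartile and library totals; filled symbols passed an adjusted p of 0.05. Upper quartile and library totals move all 10 genes down together, so that FASN in WT stands at 0.14 in place of 0.29 and is no longer called, while ELOVL6 and LPIN1 stay called in all 3 lines.

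The second comparison set the lines labelled as knockouts against WT in full medium. In fed ATG7KO cells 3 of the 10 genes were called, ELOVL6 higher and SCD and FADS2 lower, where 10.5% of all genes were called. In fed RB1CC1KO-labelled cells 3 were called as well, ACSL3 and ELOVL6 higher and FADS2 lower, against 17.2% of all genes. ELOVL6 was 1.26-fold higher in ATG7KO (log2 0.34, SE 0.07, adjusted p 0.000568) and 1.28-fold higher in RB1CC1KO-labelled cells (0.36, SE 0.07, adjusted p 0.000156), and no library of either line overlapped WT. FADS2 was lower, with a difference of -17.4% in ATG7KO (log2 -0.28, SE 0.06, adjusted p 0.00226) and -15.9% in RB1CC1KO-labelled cells (-0.25, SE 0.06, adjusted p 0.00397). Both comparisons share the 3 fed WT libraries, and the second of these FADS2 calls was lost without WT full replicate 1 (-0.19, adjusted p 0.053).

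SCD was lower in fed ATG7KO cells (log2 -0.20, SE 0.05, adjusted p 0.0111) and stood at 0.08 in RB1CC1KO-labelled cells (SE 0.05, adjusted p 0.358). The call in ATG7KO was lost without WT full replicate 1 (-0.19, adjusted p 0.0505), ATG7KO full replicate 2 (-0.19, adjusted p 0.0542) or ATG7KO full replicate 3 (-0.19, adjusted p 0.0518). ACSL3 was 1.41-fold higher in RB1CC1KO-labelled cells (log2 0.49, SE 0.07, adjusted p 9.09e-07), a call kept under every alternative run, and 0.04 in ATG7KO (SE 0.07, adjusted p 0.793). FASN stood at -0.13 in both lines (SE 0.10 each, adjusted p 0.493 in ATG7KO and 0.419 in RB1CC1KO-labelled cells). The median over the 10 genes was -0.02 in ATG7KO and 0.06 in RB1CC1KO-labelled cells, beside -0.00 and 0.02 over all genes. With library totals 38.2% of the genes called between RB1CC1KO-labelled and WT cells in full medium were higher, in place of 48.3%.

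The third comparison set the lines against WT in EBSS. In starved ATG7KO cells 1 of the 10 genes was called, FADS1, where 13.2% of all genes were called. In starved RB1CC1KO-labelled cells 6 were called, against 31.6% of all genes, and these 6 were all higher: FASN, SCD, ACLY, ACSL3, ELOVL6 and LPIN1. Over all genes 14.8% were called higher. Of the called genes 46.6% were higher with TMM and 30.7% with library totals, where the median of all genes was -0.06. The median log2 difference over the 10 genes was 0.21 in RB1CC1KO-labelled cells, beside 0.00 over all genes, and 0.09 in ATG7KO, beside 0.01. The 6 include the citrate lyase, the synthase, the elongase, the first desaturase, 1 activating enzyme and the phosphatase. The polyunsaturated chain desaturases stood at -0.01 for FADS1 (SE 0.06, adjusted p 0.909) and -0.06 for FADS2 (SE 0.06, adjusted p 0.486).

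By size, ACSL3 was 1.42-fold higher in starved RB1CC1KO-labelled cells than in starved WT cells (log2 0.50, SE 0.07, adjusted p 2.8e-07), close to its difference in full medium. FASN was 1.32-fold higher (0.40, SE 0.10, adjusted p 0.00499), although 1 starved WT library reached above the lowest starved RB1CC1KO-labelled one. SCD was 1.31-fold higher (0.39, SE 0.05, adjusted p 5.33e-07) and LPIN1 1.28-fold (0.35, SE 0.06, adjusted p 2.07e-05). ELOVL6 was 1.20-fold higher (0.26, SE 0.07, adjusted p 0.00576), a call lost without RB1CC1KO EBSS replicate 2 (0.17, adjusted p 0.0894). ACLY was 1.12-fold higher (0.16, SE 0.06, adjusted p 0.0285). Its call was lost with library totals (0.10, adjusted p 0.179), no filter on low counts (0.16, adjusted p 0.0668) or the compared groups only (0.15, adjusted p 0.0577). The call was also lost without WT EBSS replicate 1 (0.17, adjusted p 0.0507), WT EBSS replicate 2 (0.13, adjusted p 0.126) or RB1CC1KO EBSS replicate 3 (0.13, adjusted p 0.135). ACSS2 went the other way without passing the test (-0.17, SE 0.08, adjusted p 0.0922), and ACSL4 stood at 0.15 (SE 0.08, adjusted p 0.139).

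In starved ATG7KO cells FADS1 was 1.14-fold higher than in WT (log2 0.18, SE 0.06, adjusted p 0.0266), with 206 to 217 CPM against 182 to 189. That call was lost without WT EBSS replicate 1 (0.16, adjusted p 0.137), WT EBSS replicate 2 (0.17, adjusted p 0.096), ATG7KO EBSS replicate 1 (0.13, adjusted p 0.205) or ATG7KO EBSS replicate 2 (0.18, adjusted p 0.0899). It was also lost with no filter on low counts (0.18, adjusted p 0.0782) or the compared groups only (0.18, adjusted p 0.0549). Other members came near the threshold and passed it without 1 library: ELOVL6 at 0.20 (adjusted p 0.0751; 0.26 and 0.0406 without WT EBSS replicate 2), FASN at 0.22 (adjusted p 0.188; 0.33 and 0.0259 without WT EBSS replicate 3) and ACSL3 at -0.16 (adjusted p 0.14; -0.27 and 0.0142 without ATG7KO EBSS replicate 1). The number of called members in this comparison therefore ranged from 0 to 2 as single libraries were left out. FASN was also called with no filter on low counts (0.21, adjusted p 0.0124) and ELOVL6 with the replicate block (0.20, adjusted p 0.0486).

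**Figure D4:**
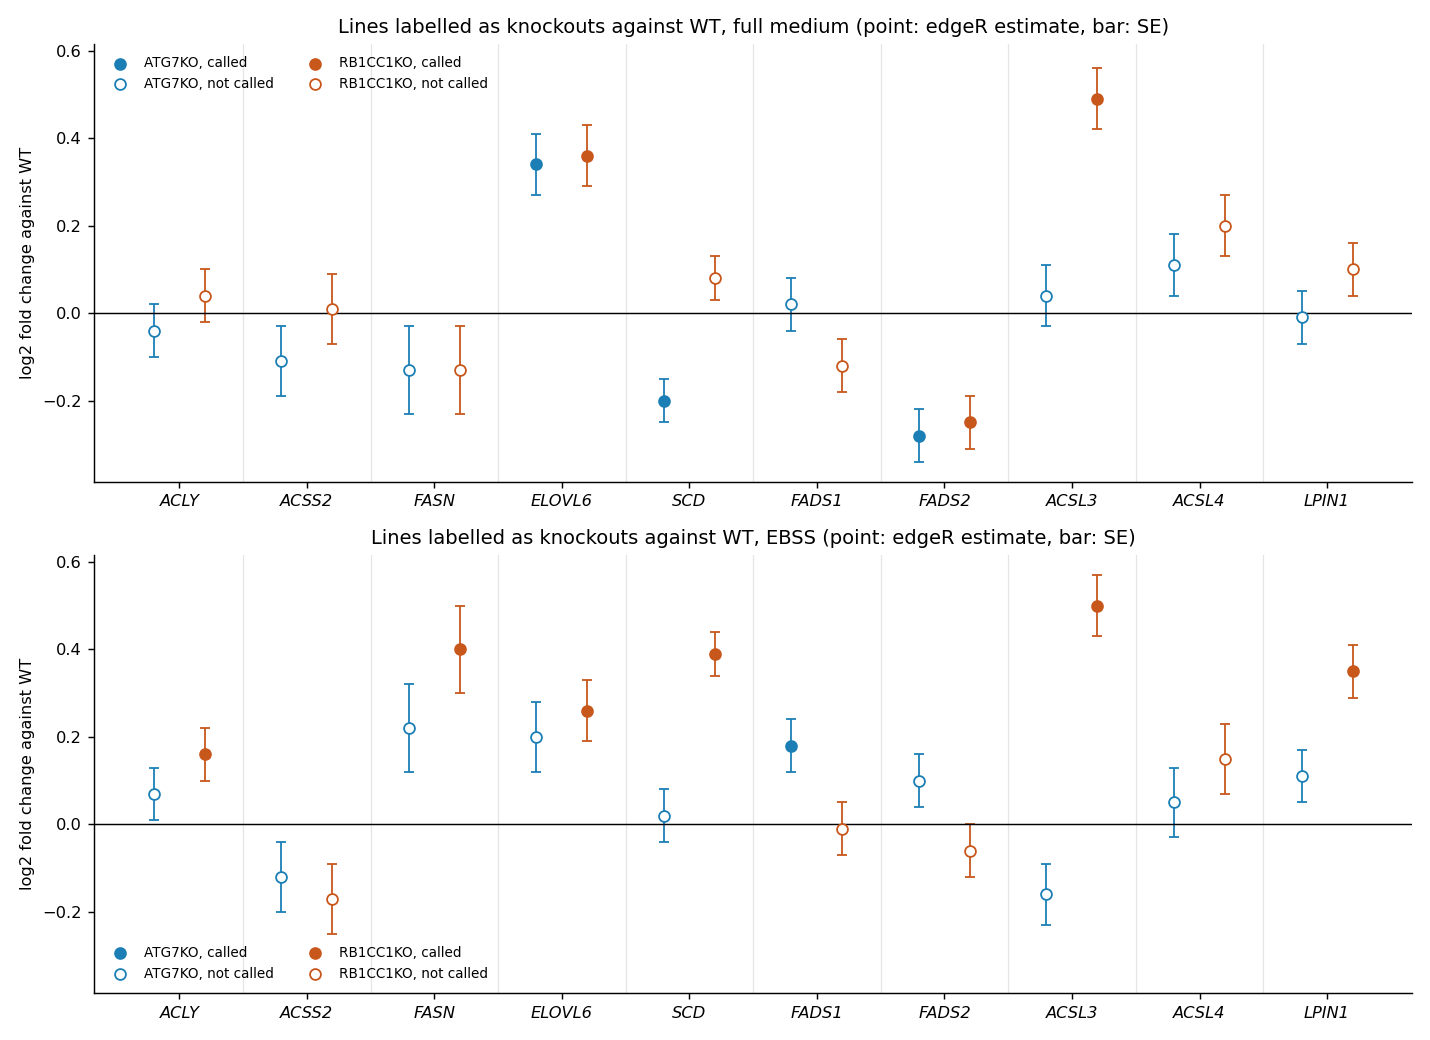
The log2 fold change of the ATG7KO and RB1CC1KO-labelled lines against WT (vertical axis) is plotted for each of the 10 genes (horizontal axis), in full medium above and in EBSS below, with bars for the SE; filled points passed an adjusted p of 0.05. In full medium ELOVL6 lies above and FADS2 below WT in both lines, and in EBSS 6 genes of the RB1CC1KO-labelled line were called above WT, ACSL3 highest at 0.50.

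Set against each other, the 2 lines labelled as knockouts differed in 2 of the 10 genes in full medium, SCD and ACSL3, where 21.4% of all genes were called. In EBSS they differed in 4, with SCD, ACSL3 and LPIN1 higher in the RB1CC1KO-labelled line and FADS1 lower, against 29.3% of all genes. ACSL3 was 1.37-fold higher in RB1CC1KO-labelled cells fed (log2 0.45, SE 0.07, adjusted p 2.32e-06) and 1.58-fold starved (0.66, SE 0.07, adjusted p 1.54e-09). SCD was 1.21-fold higher fed (0.28, SE 0.05, adjusted p 0.000149) and 1.29-fold starved (0.37, SE 0.05, adjusted p 1.71e-06). LPIN1 stood at 0.11 fed (SE 0.06, adjusted p 0.211) and was 1.18-fold higher starved (0.24, SE 0.06, adjusted p 0.00284). FADS1 was lower starved (log2 -0.20, SE 0.06, adjusted p 0.00879), and this call was lost without ATG7KO EBSS replicate 1 (-0.13, adjusted p 0.148) or RB1CC1KO EBSS replicate 1 (-0.15, adjusted p 0.0991). Over all genes called between these lines, 53.3% were higher in the RB1CC1KO-labelled line fed and 46.6% starved, against 39.6% and 33.2% with library totals. FASN in EBSS stood at 0.18 (adjusted p 0.193). It passed without RB1CC1KO EBSS replicate 2 (0.29, adjusted p 0.0219) and with no filter on low counts (0.18, adjusted p 0.0234).

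Whether a line answered EBSS differently from WT was tested as an interaction. Between ATG7KO and WT 1 of the 10 genes was called, FADS2, where 1.05% of all genes were. Its response was higher in ATG7KO by 0.38 (log2, SE 0.09, adjusted p 0.0245), which follows from a fed level that was lower than WT and a starved level that overlapped it. Between RB1CC1KO-labelled cells and WT 2 were called, FASN and SCD, against 8.16% of all genes. The response of FASN was higher by 0.53 (SE 0.14, adjusted p 0.0265) and that of SCD by 0.32 (SE 0.08, adjusted p 0.00701). Of all genes called in this test 32.9% had a higher response, and 22.3% with library totals. FASN thus rose more in these cells than in WT, and the response of SCD was less negative. LPIN1 stood at 0.25 (SE 0.09, adjusted p 0.0742). It was called with DESeq2 (0.27, adjusted p 0.0244), with the CPM filter (0.28, adjusted p 0.0376) or without RB1CC1KO full replicate 2 (0.32, adjusted p 0.0323). The SCD call kept its side of the threshold under every alternative run. That of FASN was lost with library totals (0.51, adjusted p 0.0571) and without WT full replicate 1 (0.54, adjusted p 0.0649), WT EBSS replicate 2 (0.46, adjusted p 0.0632), RB1CC1KO full replicate 2 (0.54, adjusted p 0.0502) or RB1CC1KO EBSS replicate 3 (0.47, adjusted p 0.0754). For FASN the corresponding value in ATG7KO was 0.35 (SE 0.14, adjusted p 0.266), and for SCD it was 0.22 (SE 0.08, adjusted p 0.153). With no filter on low counts that of FASN was called (0.34, adjusted p 0.018).

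Ratios of 2 genes within a library do not depend on how libraries are scaled, and they show how unequally the genes moved. The ratio of FASN to ELOVL6, in CPM per kb, was 7.46 ± 0.195 in fed WT libraries, 5.43 ± 0.864 in ATG7KO and 5.33 ± 0.709 in RB1CC1KO-labelled cells (SD of 3 libraries). In EBSS it was 18.5 ± 3.68, 18.6 ± 1.21 and 20.6 ± 4.33. The lowest starved ratio of any line, 15.2, was above the highest fed one, 7.61. The ratio of SCD, the next enzyme of the route, to ELOVL6 went from 5.54 ± 0.252 to 8.30 ± 0.636 in WT, from 3.83 ± 0.285 to 7.31 ± 0.218 in ATG7KO and from 4.56 ± 0.364 to 9.18 ± 0.948 in RB1CC1KO-labelled cells. Each line thus moved from relatively more elongase to relatively more synthase and desaturase RNA.

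Between the activating enzymes, the ratio of ACSL3 to ACSL4 was 1.52 ± 0.0714 in fed WT libraries and 2.00 ± 0.0833 in starved ones. In ATG7KO it was 1.44 ± 0.0772 and 1.75 ± 0.102, and in RB1CC1KO-labelled cells 1.87 ± 0.0379 and 2.57 ± 0.0900. The starved range lay above the fed range in each line, and the starved RB1CC1KO-labelled libraries, at 2.47 to 2.65, lay above all others. The ratio of FADS2 to FADS1 stayed between 1.54 and 2.21 over all libraries, and fed and starved ranges overlapped in each line. With 3 libraries against 3 an exact permutation test cannot go below 0.10, so these ratios are given without a test.

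**Figure D5:**
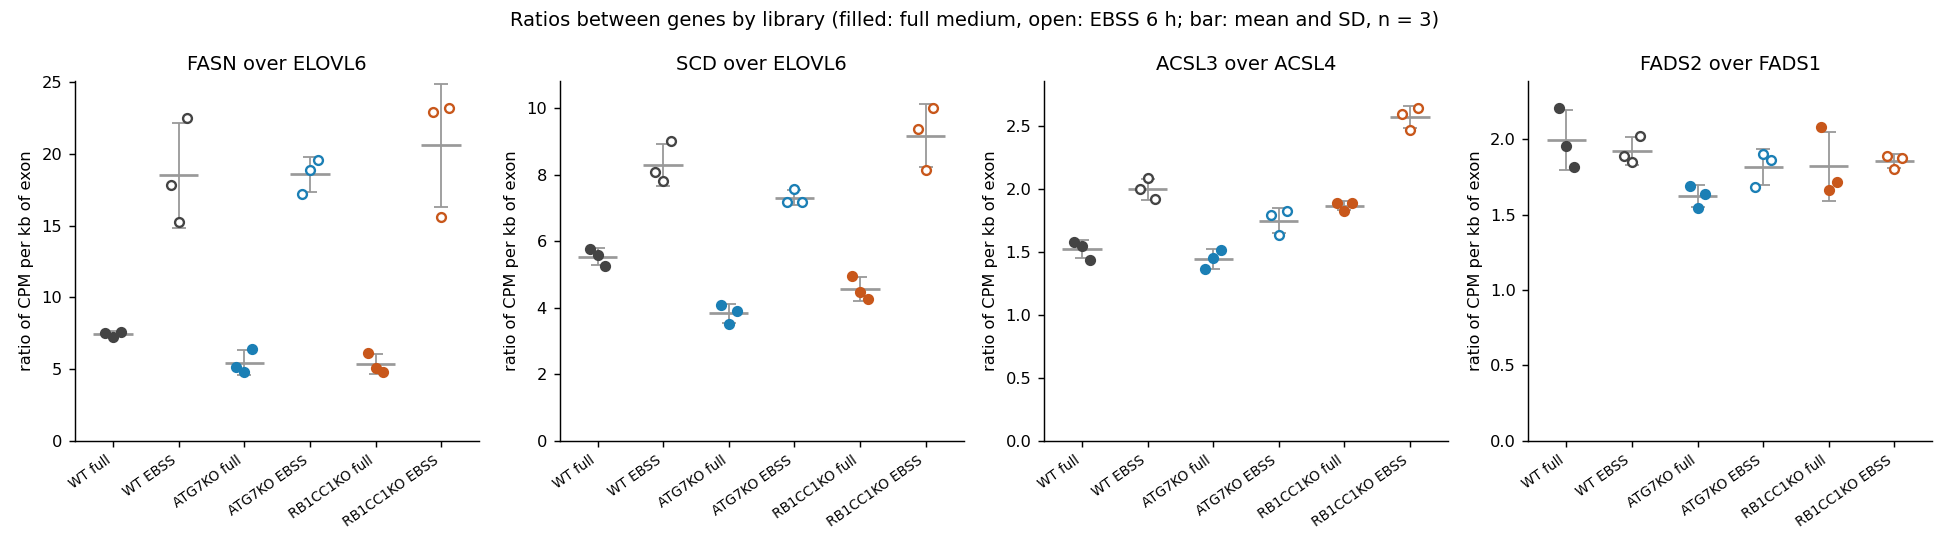
Each panel plots the ratio of 2 genes in CPM per kb of exon (vertical axis, from 0) for every library in the 6 groups (horizontal axis), filled for full medium and open for EBSS, with bars for the mean and SD of 3 libraries. FASN over ELOVL6 lies between 4.76 and 7.61 in fed libraries and between 15.2 and 23.2 in starved ones, and ACSL3 over ACSL4 is highest in starved RB1CC1KO-labelled libraries.

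The sum of the 10 genes was 2798 ± 64.3 CPM in fed and 2781 ± 189 in starved WT cells (SD of 3 libraries), 2608 ± 71.6 and 3046 ± 68.4 in ATG7KO, and 2744 ± 113 and 3349 ± 205 in RB1CC1KO-labelled cells. The comparison of fed and starved sums depends on the scaling in each line. As an unscaled share of reads in genes the sum was 0.288% to 0.305% in fed and 0.25% to 0.288% in starved WT libraries. It was 0.274% to 0.292% fed and 0.281% to 0.297% starved in ATG7KO. In RB1CC1KO-labelled cells it was 0.279% to 0.298% fed and 0.283% to 0.323% starved. The unscaled ranges thus overlapped in both of these lines. The share of FASN in the sum, which does not depend on the scaling, went from 33.3% to 40.9% in WT. It went from 32.5% to 43.5% in ATG7KO and from 30.9% to 44.9% in RB1CC1KO-labelled cells.

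Patterns over the 18 libraries were compared by the Pearson correlation of log2 CPM, as a description, since libraries share the 6 groups. FASN and LPIN1 varied together (0.897), as did ACSL4 and ELOVL6 (0.832) and SCD and ACLY (0.799). ELOVL6 ran against LPIN1 (-0.851), FASN (-0.847) and ACSS2 (-0.751). The tested genes most like FASN were SEC16A (0.982), PIEZO1 (0.975) and KDM4B (0.974). Those most like ELOVL6 were FAHD1 (0.983), EGLN3 (0.98) and TMEM218 (0.98), those most like LPIN1 were TNFRSF10D (0.991), FRY (0.991) and ADIPOR2 (0.99), and those most like SCD were RRP1B (0.96), CDHR1 (0.944) and EIF4G1 (0.934). Among the genes most like ACSL3 were SPAST (0.961) and H3-3B (0.953), ACSL4 was most like ZNF160 (0.959), SDAD1 (0.95) and NUS1 (0.941), and ACLY most like SMO (0.915), BLTP2 (0.906) and CTU2 (0.895). For ACSS2, FADS1 and FADS2 no gene with a symbol exceeded 0.883, the value of KIAA1522 for FADS2.

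Other genes of the pathway were followed in lists, whose counts in EBSS stand against 64.5%, 62.9% and 65.1% of all genes called in WT, ATG7KO and RB1CC1KO-labelled cells. Over all genes, 32.4%, 32.3% and 31.9% were called higher and 32.1%, 30.6% and 33.3% lower. All counts and values of list genes rest on TMM scaling, since other scalings were read out by gene for the 10 genes only. Upper-quartile scaling and library totals lowered the median EBSS change of all genes to between -0.17 and -0.22. Small changes of list genes are open to the same limit. Of 23 tested genes for other steps of fatty acid synthesis and elongation, 5 rose and 10 fell in WT in EBSS (median -0.09), 4 and 8 in ATG7KO (-0.04) and 5 and 9 in RB1CC1KO-labelled cells (-0.07), so that 65.2%, 52.2% and 60.9% of the list were called. ELOVL4, which makes very long chains, rose in all 3 lines, by 1.03, 0.72 and 0.95 (adjusted p at most 3.62e-08). Among the genes with the smallest p in WT were 3 enzymes of the separate mitochondrial synthesis route, which fell in all 3 lines: MCAT (-0.86, -0.95 and -1.02), OXSM (-1.46, -1.58 and -2.15) and MECR (-0.80, -0.61 and -0.71, all with adjusted p at most 2.22e-05). Other members of that route, CBR4 and HSD17B8, were lower in WT but were not called in every line, CBR4 not in ATG7KO and HSD17B8 not in RB1CC1KO-labelled cells; both were named after their values were seen. Of 11 other acyl-CoA synthetases tested, 1 rose and 5 fell in WT, 1 and 3 in ATG7KO and 2 and 4 in RB1CC1KO-labelled cells. These are 54.5%, 36.4% and 54.5% of the list, below the shares over all genes, with SLC27A4 lower in all 3 lines (-0.83, -0.56 and -0.79, adjusted p at most 4.77e-05). Of the 4 tested electron donors of the desaturases, 0 rose and 3 fell in WT and 0 and 1 in each other line, with CYB5R4 lower in each line (-0.28, -0.39 and -0.44, adjusted p 0.00924, 0.000861 and 8.22e-05).

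Among 15 tested regulators of lipid synthesis, 6 rose and 7 fell in WT in EBSS, 6 and 5 in ATG7KO and 6 and 6 in RB1CC1KO-labelled cells. The list was thus called to 86.7%, 73.3% and 80%, against 64.5%, 62.9% and 65.1% of all genes. SREBF1 and SREBF2, which encode the SREBP factors, rose in all lines: SREBF1 by 0.36, 0.92 and 0.99 (adjusted p 0.00867, 5.23e-07 and 7.47e-08) and SREBF2 by 0.27, 0.56 and 0.75 (adjusted p 0.000219, 6.94e-10 and 3.67e-13). Like FASN, both had a larger response in RB1CC1KO-labelled cells than in WT, by 0.64 for SREBF1 (SE 0.16, adjusted p 0.0141) and 0.48 for SREBF2 (SE 0.09, adjusted p 0.000302). In that test 4 of the 15 regulators were called, or 26.7% against 8.16% of all genes, and the other 2 had a lower response. The corresponding values in ATG7KO were 0.56 for SREBF1 (SE 0.16, adjusted p 0.1) and 0.29 for SREBF2 (SE 0.09, adjusted p 0.0926). MID1IP1, an activator of acetyl-CoA carboxylase, rose by 1.03, 1.17 and 1.25 (adjusted p at most 5.89e-10). INSIG1, an SREBP target that holds the SREBP complex back, fell (-0.82, -0.97 and -0.77, adjusted p at most 1.91e-08). MLXIPL, which encodes the carbohydrate response factor ChREBP, stood at 0.556 CPM in fed WT cells, with log2 changes of 0.12, -0.65 and 0.10 (adjusted p 0.833, 0.281 and 0.884).

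Cholesterol synthesis shares its SREBP regulators with the 10 genes, and most of its called genes were lower in EBSS. Of 23 tested, 4 rose and 14 fell in WT (median -0.26), 3 and 9 in ATG7KO (-0.13) and 5 and 10 in RB1CC1KO-labelled cells (-0.05). The lower genes are 60.9%, 39.1% and 43.5% of the list, and those called in either direction 78.3%, 52.2% and 65.2%. Of all genes 32.1%, 30.6% and 33.3% were lower, and 64.5%, 62.9% and 65.1% were called. HMGCS1, the synthase at the head of that route, fell (-0.75, -0.67 and -0.54, adjusted p at most 8.05e-09). In starved RB1CC1KO-labelled cells 15 of the 23 were higher than in WT and 0 lower (median 0.23, beside 0.00 over all genes), where 14.8% of all genes were higher and 16.9% lower. HMGCS1 was 0.66 higher there (SE 0.07, adjusted p 1.44e-09). These were the libraries in which FASN, SCD, ACLY, ELOVL6 and LPIN1 were also higher. In full medium 6 of the 23 were higher in RB1CC1KO-labelled cells than in WT and 0 lower (median 0.12). Over all genes 8.3% were higher and 8.87% lower there. HMGCS1 was 0.45 higher in that comparison (SE 0.07, adjusted p 3.35e-06). Its response to EBSS differed from WT by 0.21 (SE 0.09, adjusted p 0.179). In the interaction test for this line 1 of the 23 was called, against 8.16% of all genes.

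Downstream, of 21 tested genes of glycerolipid synthesis other than LPIN1, 10 rose and 8 fell in WT (median -0.20), 9 and 7 in ATG7KO (0.03) and 8 and 8 in RB1CC1KO-labelled cells (-0.13), or 85.7%, 76.2% and 76.2% of the list. The LPIN1 paralogues moved in opposite directions in EBSS: LPIN2 rose by 1.29, 1.13 and 1.17 (adjusted p at most 5.58e-16) and LPIN3 fell (-1.41, -1.11 and -1.28, adjusted p at most 4.6e-11). In the opposite pathway, 14 of 30 tested genes of fatty acid oxidation and lipolysis rose and 5 fell in WT (median 0.12), 12 and 5 in ATG7KO (0.11) and 13 and 6 in RB1CC1KO-labelled cells (0.10). The share called, 63.3%, 56.7% and 63.3%, was slightly below that over all genes, with 46.7%, 40% and 43.3% of the list higher. PPARA, the receptor that drives oxidation genes, rose by 1.21, 1.17 and 0.80, and PLIN2, a lipid droplet coat protein, rose by 1.39, 1.01 and 1.21 (adjusted p at most 3.34e-12). CPT2, the inner membrane carnitine transferase, fell (-1.61, -1.41 and -1.75, adjusted p at most 1.84e-17). In starved RB1CC1KO-labelled cells 2 of these 30 genes were higher and 9 lower than in WT (median -0.15), which is 6.67% and 30% of the list against 14.8% and 16.9% of all genes.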

How the data were processed

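The measurements were RNA-seq read counts in 18 libraries. Each library has its own table of raw counts by gene as the authors deposited it, whole numbers with no normalization. The tools listed in the submitters' processing notes, with no role stated, are HTSeq 0.6.1p1, STAR 2.4.2a, DESeq2, edgeR and Picard, with GRCh37 (hg19) as build. Neither strand setting nor annotation release is given in the sources used here. Per the labels' protocols, a directional kit was used on RNA selected by its poly(A) tail on beads, with single reads of 75 bp. Summary lines, 5 in each table, entered no library size and no test; reads in no gene made up 9.39% to 15.1% and ambiguous reads 2.08% to 2.42%.

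Gene names and exon lengths came from GENCODE 29 (GRCh38, another build than the counts), which matched 52526 of 63677 identifiers, and 186 of 187 list entries were matched. The other entry was not analysed here. Promoters came from RefSeq (GRCh38.p14), with an entry for 9 of the 10 genes.

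Counts were analysed in R 4.3.3 with edgeR 4.0.16: filterByExpr, TMM scaling and 1 robust quasi-likelihood fit of 6 group means. All adjusted p-values are from that F test with Benjamini-Hochberg adjustment over 15179 genes. A gene was called at an adjusted p below 0.05. The SE is the size of the log2 change divided by the square root of F. The common coefficient of variation was 6.72%. The fit was also run on simulated counts in which far fewer genes changed than were called for EBSS here. That run could therefore not test the scaling. Levels are CPM after TMM scaling, and errors are the SD of 3 libraries. Correlations used log2 CPM with a prior count of 2. P-values set a difference of group means against the spread between libraries within groups, estimated over all 6 groups and partly shared across genes. Alternatives were DESeq2 1.42.0, 3 other scalings, 2 other filters on low counts (no filter, and at least 1 CPM in 3 libraries), a fit to the compared groups only, a replicate block and each library left out. The 10 genes and the lists were chosen with earlier results of these data known. Named were all 10 genes, up to 4 genes of each list with the smallest p for EBSS in WT, the regulators SREBF1, SREBF2, INSIG1 and MLXIPL, the 3 genes most like each of the 10, both knockout targets and genes that overlap one of the 10. Some genes that this rule names are not reported here.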

Additional observations from a re-analysis of the deposited data

Results flagged for a closer look

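In edgeR's interaction test against WT, the response to EBSS was called for 2 of the 10 genes in RB1CC1KO-labelled cells, against 8.16% of all genes. In ATG7KO it was called for 1, against 1.05% of all genes. FASN rose more in RB1CC1KO-labelled cells than in WT, by 0.53 on the log2 scale (SE 0.14, adjusted p 0.0265). That call was lost in 5 of 20 alternatives, with adjusted p up to 0.0754. SCD fell less in RB1CC1KO-labelled cells than in WT, by a difference of 0.32 (SE 0.08, adjusted p 0.00701). For FADS2 the response in ATG7KO was higher than in WT by 0.38 (SE 0.09, adjusted p 0.0245), and fed WT libraries were above fed ATG7KO ones in all 9 pairs. Leaving out any 1 of 8 libraries ended the FADS2 call, with adjusted p from 0.0545 to 0.151. What lies behind these differences was not tested.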

How the results depend on the processing

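Of 110 results (10 genes in 11 comparisons) 42 were called, 25 of these kept their call in every alternative, and 17 lost it in at least 1. Another 17 were called in an alternative only. LPIN1 kept all 5 of its calls, ELOVL6 5 of 6, SCD 6 of 7, ACSL3 4 of 6 and FASN 3 of 5, while ACSS2, ACSL4 and FADS1 kept 0 of 2 each. In all, 3 results changed sign and were called, all for EBSS in RB1CC1KO-labelled cells: FADS1 was -0.13 with upper-quartile scaling and -0.18 with library totals, and FADS2 -0.15 with library totals, against 0.01 and 0.04 with TMM. The number of genes called for EBSS in RB1CC1KO-labelled cells was 8 with library totals, 7 with upper-quartile scaling and 4 to 6 with 1 library left out, against 5. For ATG7KO against WT in EBSS it was 2 with the replicate block, 0 with the compared groups only and 0 to 2 with 1 library left out, against 1. For the ATG7KO response to EBSS set against that of WT it was 2 with no filter on low counts and 0 to 1 with 1 library left out, against 1. For that between RB1CC1KO-labelled cells and WT it was 1 with library totals and 1 to 2 with 1 library left out, against 2. With DESeq2 and with the CPM filter LPIN1 was called there in addition to FASN and SCD. Over all genes the ATG7KO response differed from WT for 293 with the replicate block and 281 with no filter, against 160. The cause of these changes was not tested. Same-numbered libraries were not paired in the main fit. Their deviations from the group means correlated at -0.104 to 0.221, and in no comparison were all 3 above 0.1. Whether they share a batch is not stated in the labels and was not tested. Over all genes the replicate block raised the number called in every comparison, as from 1599 to 1863 for ATG7KO against WT in full medium. With it 9, 7 and 5 of the 10 genes were called for EBSS in WT, ATG7KO and RB1CC1KO-labelled cells. In the fit of all 18 libraries only FADS1 was called for ATG7KO against WT in EBSS. The unadjusted p of the F test there was 0.047 for FASN, 0.0296 for ACSL3 and 0.0116 for ELOVL6. The share of all genes with an unadjusted p below 0.05 is not given here, so these values are no result about the 10 genes.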
